A study of Mus musculus with 15 samples.

Results

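A set of 10 genes of the tight junction, the belt of strands that seals the space between neighbouring epithelial cells, was followed in the ileum of mice that had swallowed proanthocyanidins (PAC). The genes were chosen by name and comprised 6 claudins (Cldn2, Cldn3, Cldn4, Cldn7, Cldn15 and Cldn23), the MARVEL proteins occludin (Ocln) and tricellulin (Marveld2), the junctional adhesion molecule JAM-A (F11r) and the scaffold ZO-1 (Tjp1). All 10 were found among the 17752 genes listed in any mouse, and all 10 passed the filter on low counts. The study had 3 groups of 5 female C57BL/6 mice aged 8 weeks (the study's methods name the substrain C57BL/6JOlaHsd), each mouse giving 1 RNA-seq library from a piece of ileum. The water group was gavaged with water only, and the low PAC and high PAC groups with fractions of grape PAC of smaller and larger polymer size at 200 mg/kg, every 2 days for 10 days. The sample labels call the larger fraction high molecular weight PAC, whereas the study's methods describe it as of medium mean degree of polymerization (mDP). The name high PAC is kept here, and the match between both names was inferred. The mice were healthy, with no infection or colitis, and the tissue was whole ileum, so that fewer epithelial cells and less RNA per epithelial cell cannot be told apart.

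Claudins form the strands themselves, and the set that a cell makes decides which ions and how much water pass between cells. In the small intestine, Cldn2 and Cldn15 form pores for small cations and Cldn2 also lets water through, whereas Cldn3, Cldn4 and Cldn7 are mostly held to be sealing or structural members. Ocln and Marveld2 span the membrane beside the claudins, with Marveld2 gathered where 3 cells meet, F11r helps to place the junction at the apical end of the cell, and Tjp1 ties the strands to actin.

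Total expected counts, the estimated read pairs assigned to genes, lay between 15963086 and 17903886 per mouse, and 14386 genes were tested. Marker genes of the intestinal epithelium (Epcam, Krt8, Vil1 and others) and of the distal ileum (Fabp6, Slc10a2 and others) were high in every mouse, with 10 epithelial genes summing to 6725 to 8051 FPKM and 5 distal ileum genes to 5099 to 11780 FPKM (fragments relative to gene length and library total). Libraries differed in the tissue they held. An 11-gene list of follicular B cells was high in 7 mice, in 3 of 5 with water and in 2 of 5 with each PAC fraction, and low in the other 8. The third high PAC mouse stood apart from the rest. Its counts came from shorter genes, with a count-weighted mean gene length of 3134 bases against 3530 to 3680 bases in the other mice, and its FPKM summed to 677075 against 502110 to 573980. Where leaving this mouse out moved a tight junction gene to the other side of an unadjusted p of 0.05 for high PAC against water, both values are given.

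The levels covered a wide range. FPKM is scaled by gene length, so it was used to set the genes side by side. In the water group, Cldn7 was highest with 559 ± 59.8 FPKM (SD, n = 5), which gave it rank 122 of the 17752 genes. Cldn3 followed with 242 ± 28.5 FPKM, Cldn15 with 159 ± 18.2 FPKM, F11r with 105 ± 8.00 FPKM and Cldn2 with 87.0 ± 19.0 FPKM. The next were Ocln with 49.0 ± 4.15 FPKM, Cldn4 with 41.3 ± 7.16 FPKM and Tjp1 with 39.0 ± 2.68 FPKM, and the lowest were Marveld2 with 15.9 ± 0.982 FPKM and Cldn23 with 14.3 ± 1.38 FPKM. Neighbours in this order did not overlap between water mice, except F11r and Cldn2, Ocln and Cldn4, Cldn4 and Tjp1, and Marveld2 and Cldn23. Within the summed FPKM of the 6 claudins, Cldn7 alone held 50.6% ± 1.31 with water, 49.3% ± 1.83 with low PAC and 48.4% ± 1.35 with high PAC (SD, n = 5). The share of Cldn2 was 7.88% ± 1.57, 9.39% ± 1.32 and 10.7% ± 1.53 in the same order, and that of Cldn15 14.5% ± 2.21, 13.1% ± 2.29 and 13.1% ± 2.08.

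**Figure D1:**
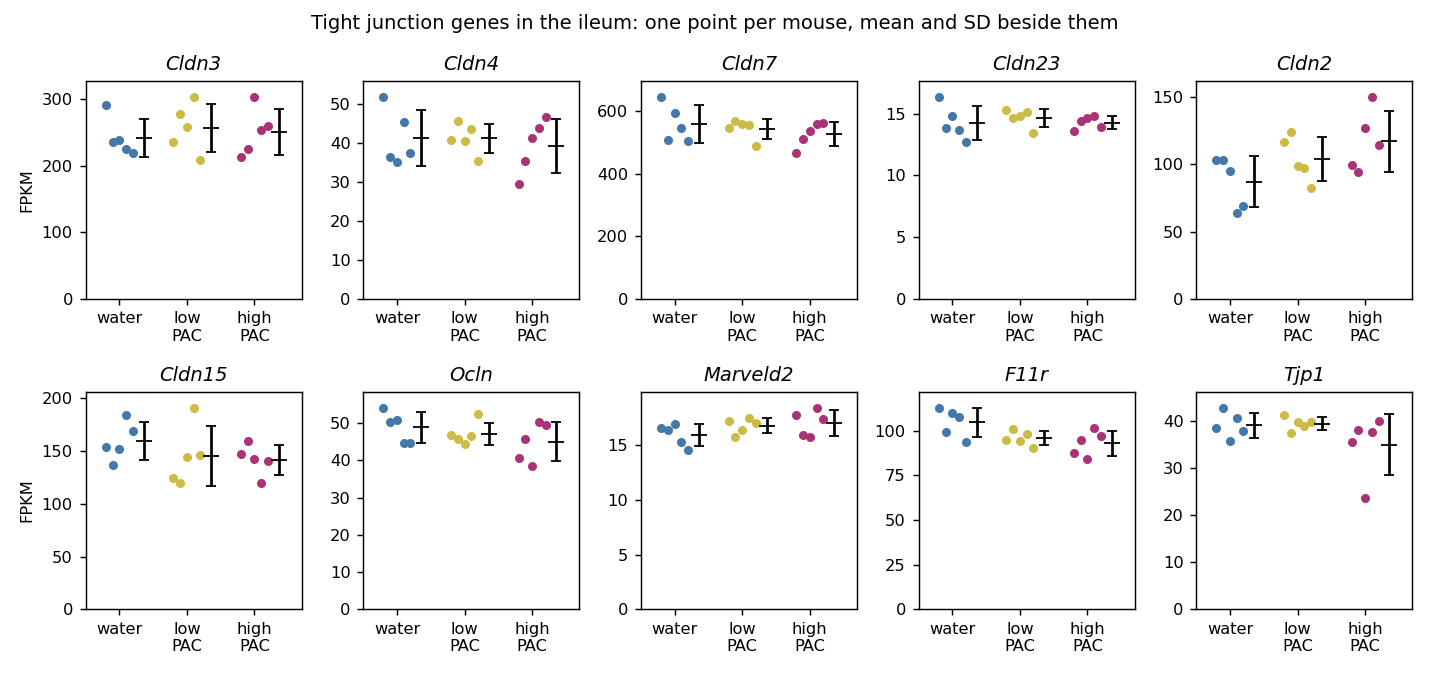
FPKM (y axis, from 0) of each tight junction gene in the 15 mice, by group (x axis); each point is 1 mouse, and the bar beside a group shows its mean and SD. In every panel the groups overlap, and the third high PAC mouse has a Tjp1 of 23.6 FPKM, below all other mice.

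The expected counts behind these levels were high. The lowest count of any of the 10 genes was 393 (Cldn23) and the highest 13820 (Cldn7), and in 29 of the 30 sets of 1 gene in 1 group the spread of FPKM between mice was larger than the counting error of 0.919% to 4.78%. The exception was Cldn23 with high PAC, with a spread of 3.66% and a counting error of 4.76%. Within a group the coefficient of variation of FPKM went from 3.54% (Tjp1 with low PAC) to 21.9% (Cldn2 with water).

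The first comparison asked how the larger PAC fraction differed from water. After adjustment over all genes none of the 10 tight junction genes passed (edgeR quasi-likelihood test, adjusted p from 0.225 to 0.924), against 0.0139% of all genes tested. With TMM scaling the log2 fold change of the counts was below 0 in 9 of the 10 and above it in 1, Cldn2, whereas 6 were above 0 when scaled to the epithelium list. That scaling moved all genes up, and 9 of the 10 were below the median of all genes in both cases. The TMM values had a median of -0.18 beside 0.0024 over all genes tested. At an unadjusted p under 0.05 there were 4 of the 10, namely F11r, Ocln, Cldn15 and Tjp1, each lower with high PAC, whereas 14.8% of all genes reached it in either direction and 10.4% in the lower and 4.37% in the higher direction. DESeq2 also called 0 of the 10 after adjustment and had 4 at an unadjusted p under 0.05, with Cldn2 (higher) in the place of Tjp1, where 14.9% of all genes reached it by DESeq2 (6.15% higher and 8.77% lower). Under the NOISeq rule (probability over 0.8 and a fold of at least 2), 0 of the 10 were called, against 0.202% of all genes. The FPKM of the 2 groups overlapped for each of the 10, where 4.64% of all genes had groups that did not overlap.

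F11r, the adhesion molecule JAM-A, was the one with the smallest p. It measured 113, 99.3, 110.2, 107 and 93.7 FPKM in the water mice, 94.9, 101, 94.6, 98.4 and 90.5 FPKM in the low PAC mice, and 87.5, 95.1, 84.2, 102 and 96.9 FPKM in the high PAC mice. The FPKM of 3 water mice lay above every PAC mouse, while the other 2 water mice were within the PAC range. The log2 fold change of the counts with high PAC was -0.27 ± 0.09 (SE, unadjusted p = 0.0068, adjusted p = 0.225, edgeR), and the exact permutation test on log2(FPKM + 0.1) gave a two-sided p = 0.0556. With low PAC it was -0.18 ± 0.09 (unadjusted p = 0.0476, adjusted p = 0.976).

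The MARVEL protein Ocln, which spans the membrane beside the claudins, measured 54.1, 50.4, 51.0, 44.7 and 44.8 FPKM with water, 46.8, 45.8, 44.6, 46.5 and 52.4 FPKM with low PAC, and 40.8, 45.8, 38.5, 50.4 and 49.5 FPKM with high PAC. The high PAC mice reached lower, but 3 of the 5 lay within the water range. Its log2 fold change with high PAC was -0.22 ± 0.09 (unadjusted p = 0.0352, adjusted p = 0.304, edgeR; exact permutation p = 0.230). Without the third high PAC mouse it was -0.13 (unadjusted p = 0.133), and the unadjusted p was under 0.05 in 10 of the 15 fits that left out 1 mouse. Its partner Marveld2 lay close to 0, with 14.5 to 16.9 FPKM with water, 15.7 to 17.4 with low PAC and 15.7 to 18.4 with high PAC, and a log2 fold change of -0.02 ± 0.07 (adjusted p = 0.924). Ocln and Marveld2 are neighbours on chromosome 13 of GRCm38, at 100496507 to 100552718 and 100595957 to 100616971 on the minus strand, with 0 protein-coding genes between them.

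Tjp1, the scaffold ZO-1, measured 38.4, 42.7, 35.8, 40.6 and 37.7 FPKM with water, 41.2, 37.4, 39.7, 38.9 and 39.7 FPKM with low PAC, and 35.4, 38.0, 23.6, 37.6 and 40.0 FPKM with high PAC. The other 4 high PAC mice were near the water mice, and the difference between the means came largely from the third. With all mice the log2 fold change with high PAC was -0.25 ± 0.11 (unadjusted p = 0.0414, adjusted p = 0.319, edgeR), and without that mouse it was -0.11 (unadjusted p = 0.108, adjusted p = 0.522). Tjp1 is the longest of the 10 genes, with a mean length of 7026 bases in the deposited files, and the third high PAC mouse was the one whose counts came from shorter genes. The part of gene length in its Tjp1 value was not tested. Without this mouse the count at an unadjusted p under 0.05 was 1 of the 10 (F11r, log2 fold change -0.19), beside 10.9% of all genes (5.62% lower), so that the count was close to the share of all genes.

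The pore-forming claudins lay on opposite sides of 0. Cldn2 measured 103, 103, 95.2, 64.1 and 69.1 FPKM with water, 116, 124, 99.1, 97.2 and 82.3 FPKM with low PAC, and 99.9, 94.2, 127, 150.0 and 114 FPKM with high PAC. The 2 lowest of all 15 values came from water mice and the 2 highest from high PAC mice, with overlap between the groups. Its log2 fold change with high PAC was 0.33 ± 0.17 (unadjusted p = 0.0750, adjusted p = 0.380, edgeR; exact permutation p = 0.0714), with a 95% interval of the fold from 0.975 to 1.62. The unadjusted p of Cldn2 was under 0.05 in 9 of the 14 other settings tried (0.0029 to 0.0904), and its adjusted p in none (0.111 to 0.439). When single mice were left out, the log2 fold change ran from 0.21 (without the fourth high PAC mouse, unadjusted p = 0.231) to 0.41, and the unadjusted p was under 0.05 in 3 of 15 fits.

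Cldn15 measured 154, 136, 152, 184 and 169 FPKM with water, 124, 119, 144, 191 and 146 FPKM with low PAC, and 147, 159, 142, 119 and 140.1 FPKM with high PAC. Values of 2 water mice lay above all high PAC mice, and the highest value of all was that of a low PAC mouse. The log2 fold change with high PAC was -0.27 ± 0.12 (unadjusted p = 0.0397, adjusted p = 0.314, edgeR; exact permutation p = 0.135). Without the third high PAC mouse it was -0.23 (unadjusted p = 0.0932), and the unadjusted p was under 0.05 in 7 of the 15 fits without 1 mouse. The ratio of Cldn2 to Cldn15 FPKM ran from 0.348 to 0.759 with water (median 0.627), from 0.510 to 1.04 with low PAC (median 0.686) and from 0.593 to 1.26 with high PAC (median 0.817).

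For the remaining claudins the water and high PAC mice overlapped widely. Cldn7 had 505 to 645 FPKM with water and 467 to 561 with high PAC (log2 fold change -0.19 ± 0.10, adjusted p = 0.379), and Cldn3 had 219 to 291 and 213 to 303 FPKM (-0.05 ± 0.12, adjusted p = 0.870). Cldn4, with 35.2 to 51.9 and 29.6 to 46.8 FPKM, had a log2 fold change of -0.17 ± 0.14 (adjusted p = 0.560). The values of Cldn23 were 12.7 to 16.3 and 13.6 to 14.9 FPKM (-0.10 ± 0.08, adjusted p = 0.574). Each of Cldn4, Cldn7 and Cldn23 depended on the first water mouse, without which the log2 fold change was -0.06, -0.12 and -0.03, and Cldn4 was at -0.07 without the first high PAC mouse. Cldn3 changed sign without either mouse, to 0.04 without the first water mouse and 0.01 without the first high PAC mouse.

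**Figure D2:**
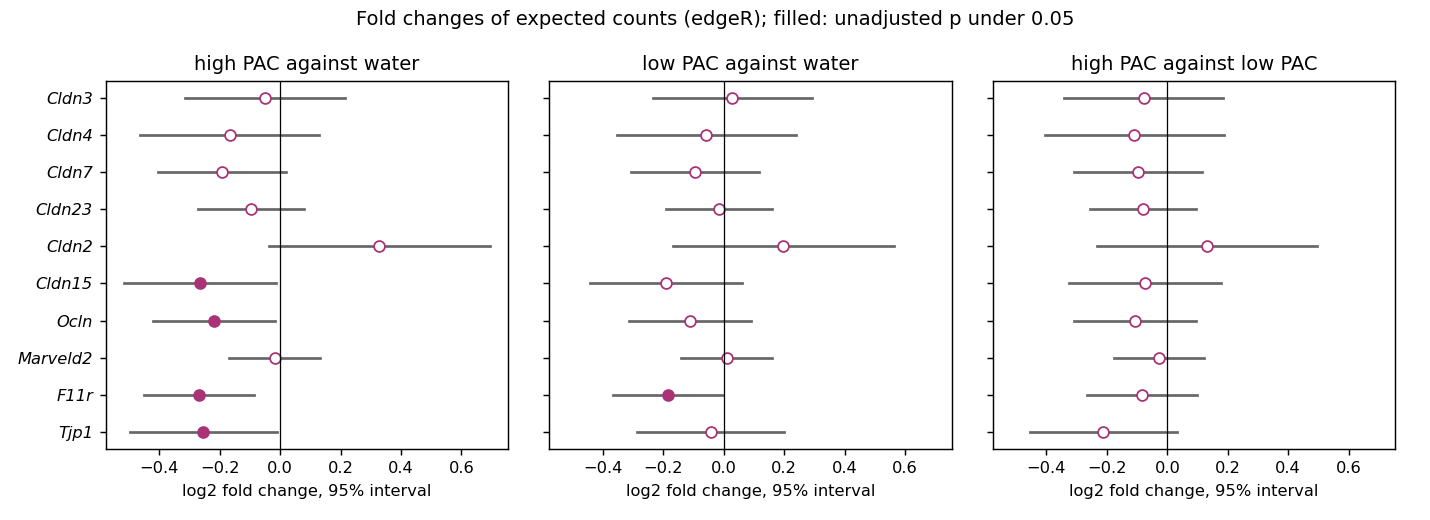
Log2 fold change of the expected counts (x axis, point) with its 95% interval (line) for each tight junction gene (y axis) in the 3 comparisons, fitted with edgeR on all 15 mice; filled points have an unadjusted p under 0.05. Filled points number 4 for high PAC against water, 1 (F11r) for low PAC against water and 0 for high against low PAC, and Cldn2 is the one gene above 0 in all 3 panels.

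The second comparison set low PAC against the same water mice, so it is not independent of the first. None of the 10 genes passed after adjustment (edgeR, adjusted p from 0.976 to 0.992), and 0 of the 14386 genes did. F11r was the 1 gene of the 10 with an unadjusted p under 0.05, in a comparison in which 3.61% of all genes had one (2.21% lower and 1.4% higher). The median log2 fold change of the 10 was -0.05 against -0.014 over all genes, with 3 genes above 0 and 7 below. The log2 fold change was 0.20 ± 0.17 for Cldn2, -0.19 ± 0.12 for Cldn15, -0.11 ± 0.09 for Ocln and -0.04 ± 0.11 for Tjp1. When single mice were left out, Cldn2 ran from 0.105 (without the fourth water mouse) to 0.28, Ocln from -0.16 to -0.06 and Tjp1 from -0.07 to -0.01. Cldn15 ran from -0.13 to -0.31, the latter without the fourth low PAC mouse (unadjusted p = 0.0091). The FPKM ranges of the 2 groups overlapped for all 10 genes (0.605% of all genes did not overlap), and 0 were called by the NOISeq rule (0.160% of all genes).

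The third comparison, between the 2 fractions, differing in polymer size at the same dose and schedule, also left 0 of the 10 past the adjusted threshold (edgeR, adjusted p from 0.896 to 0.960, 0 of all genes). None had an unadjusted p under 0.05, which 3.89% of all genes had (2.05% lower and 1.84% higher). With TMM and all mice the largest difference was that of Tjp1, with a log2 fold change of high against low PAC of -0.21 ± 0.11 (unadjusted p = 0.0844). Without the third high PAC mouse it was -0.08, smaller in size than Cldn3 at -0.14. When scaled to the epithelium list it was -0.14, smaller in size than Cldn2 at 0.22. Cldn2 was at 0.13 ± 0.17 (0.014 without the fourth high PAC mouse to 0.22 without the second low PAC mouse) and F11r at -0.08 ± 0.09 (-0.13 to -0.03, the latter without the third high PAC mouse). The 95% intervals of the 10 folds lay between 0.730 and 1.41, those for high PAC against water between 0.699 and 1.62 and those for low PAC against water between 0.736 and 1.48. Differences of this size remain possible in either direction, and the comparisons do not show that the fractions acted alike.

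**Figure D3:**
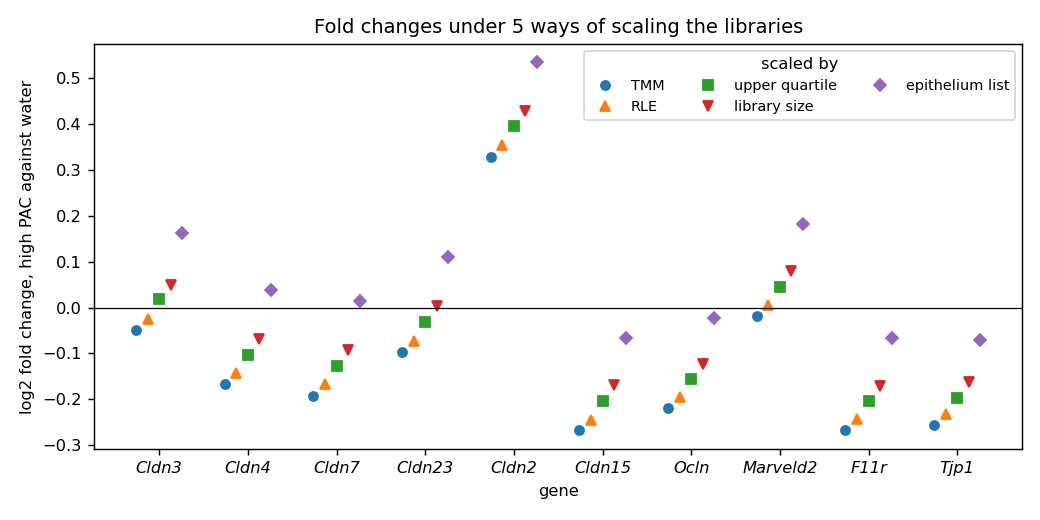
Log2 fold change with high PAC against water (y axis) of each tight junction gene (x axis) under 5 ways of scaling the libraries (symbols). The symbols of a gene move up together from TMM to scaling on the epithelium list, by about the same amount in every gene, so that Cldn3, Cldn4, Cldn7, Cldn23 and Marveld2 end above 0 while Cldn15, Ocln, F11r and Tjp1 stay below it.

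How the libraries were scaled mattered for the side of 0 on which a gene fell. With TMM, 628 genes were higher and 1500 lower with high PAC at an unadjusted p under 0.05, with upper-quartile scaling 1505 were higher and 816 lower, with library sizes alone 2227 and 477, and with scaling to the epithelium list 3951 and 160. Scaling to the 10 epithelium marker genes raised the median of all genes to 0.201 (log2), and 6 of the 10 tight junction genes were then above 0. Set against the median of all genes, 9 of the 10 were below it and 1, Cldn2, above it under each of the 5 scalings. On the epithelial scale the log2 fold change was 0.53 for Cldn2 (unadjusted p = 0.0029, adjusted p = 0.111), -0.07 for F11r, -0.07 for Cldn15 and -0.02 for Ocln, and the genes at an unadjusted p under 0.05 were then 2, Cldn2 and Marveld2 (0.18), both higher, in place of the 4 lower ones. On that scale 27.5% of all genes were higher and 1.11% lower at this p, so that 2 of 10 higher was below the share of all genes. With TMM, the epithelium list itself had a median log2 fold change of -0.20 with high PAC (5 of 10 genes with an unadjusted p under 0.05, all lower). The mature enterocyte list had one of -0.44 (6 of 10, all lower), and the crypt list one of 0.20 (3 of 10, all higher). With TMM 10.4% of all genes were lower and 4.37% higher at this p, and none of the genes of these lists passed after adjustment. Their part in the differences of the tight junction genes was not tested.

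Variation between mice of a group was then compared with the tissue each piece of ileum held. For each mouse, the mean log2(FPKM + 0.1) of a marker list was taken as a score, the group means were subtracted, and scores were set against each tight junction gene over the 15 mice. Scores were computed for 6 lists, giving 60 relations over which p-values were adjusted. In the B cell list the mice formed 2 separate clusters, one of 8 mice with scores of -1.13 to -0.469 and one of 7 mice with 2.46 to 4.19. A pooled correlation would mix the difference between clusters with any relation inside them. The 20 relations to this list and the follicle epithelium list, which moved with it, were left out after the data were seen. Among them, Tjp1 was lower at higher scores of both lists when all mice were pooled. Its r was -0.60 for B cells (adjusted p = 0.0339) and -0.71 for follicle epithelium (adjusted p = 0.0078, permutation test). Within clusters no correlation was computed. Of the remaining 40 relations, 7 passed at an adjusted p under 0.05 (permutation test, two-sided). Mice were permuted as if no group means had been subtracted, so the p-values of all these relations are somewhat too small. Relations near the threshold are therefore uncertain, and how many of all genes follow these scores as closely was not computed.

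F11r tracked the epithelium list closely (Pearson's r = 0.95, permutation p = 1e-05, adjusted p = 0.0006, Spearman's rho = 0.96 with p = 1e-05), both p-values being as small as this number of permutations allows. Leaving out the pair of mice with the most extreme scores gave r = 0.94. The claudins Cldn7, Cldn23 and Cldn4 did so more loosely. For Cldn7 r was 0.81 (p = 0.00037, adjusted p = 0.0074, rho = 0.80 with p = 0.00055, 0.73 without the most extreme pair), for Cldn23 it was 0.74 (p = 0.0015, adjusted p = 0.0174, rho = 0.68 with p = 0.0067, 0.61 without them) and for Cldn4 0.67 (p = 0.0064, adjusted p = 0.0429, rho = 0.62 with p = 0.0166, 0.52 without them). When single mice were left out, F11r and Cldn7 passed in all 15 fits and Cldn23 in 13, whereas Cldn4 passed in 2 of 15 (adjusted p up to 0.215, without the first water mouse). The epithelium scores spanned 8.97 to 9.25, with group means of 9.13 for water, 9.10 for low PAC and 9.05 for high PAC. Cldn23 was also lower where the smooth muscle score was higher (r = -0.68, p = 0.0049, adjusted p = 0.0365, rho = -0.61 with p = 0.0179), with r = -0.54 once the 2 water mice with the lowest smooth muscle scores were left out, and it passed in 9 of 15 fits without 1 mouse. Both genes and lists were read from the same library, whose total they share.

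Cldn2 and Cldn15 did not follow the epithelium score at the adjusted threshold but the position score, the mean of 8 genes of the proximal small intestine (such as Gata4, Lct and Apoa4) less that of 5 genes of the distal ileum. Cldn2 was higher in mice with a more distal score, with r = -0.87 (permutation p = 2e-05, adjusted p = 0.0006, rho = -0.87 with p = 7e-05, -0.88 without the 2 farthest mice), and over the removal of any single mouse r stayed between -0.93 and -0.86. Cldn15 was higher in mice with a more proximal score, with r = 0.70 (p = 0.0034, adjusted p = 0.0335, rho = 0.80 with p = 0.00054, 0.65 without the 2 farthest mice), and passed in 8 of 15 fits without 1 mouse (adjusted p up to 0.0919, without the second low PAC mouse). With the proximal genes alone r was -0.81 for Cldn2 and 0.70 for Cldn15, and with the distal genes alone, with the sign turned, -0.72 and 0.45, the latter no longer past the threshold (adjusted p = 0.288). Without Gata4 and Apoa4, which the study itself had listed on these mice, r was -0.84 for Cldn2 and 0.62 for Cldn15 (adjusted p = 0.0943), these 3 scores having been added after seeing the data. The position score was lower with PAC than with water, with -3.34 ± 0.960 for water, -4.38 ± 0.939 for low PAC and -4.36 ± 0.656 for high PAC (SD, n = 5), and the 2 water mice with the lowest Cldn2 had the highest scores, -2.56 and -2.12. Whether the score accounts for the difference in Cldn2 between groups was not tested.

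**Figure D4:**
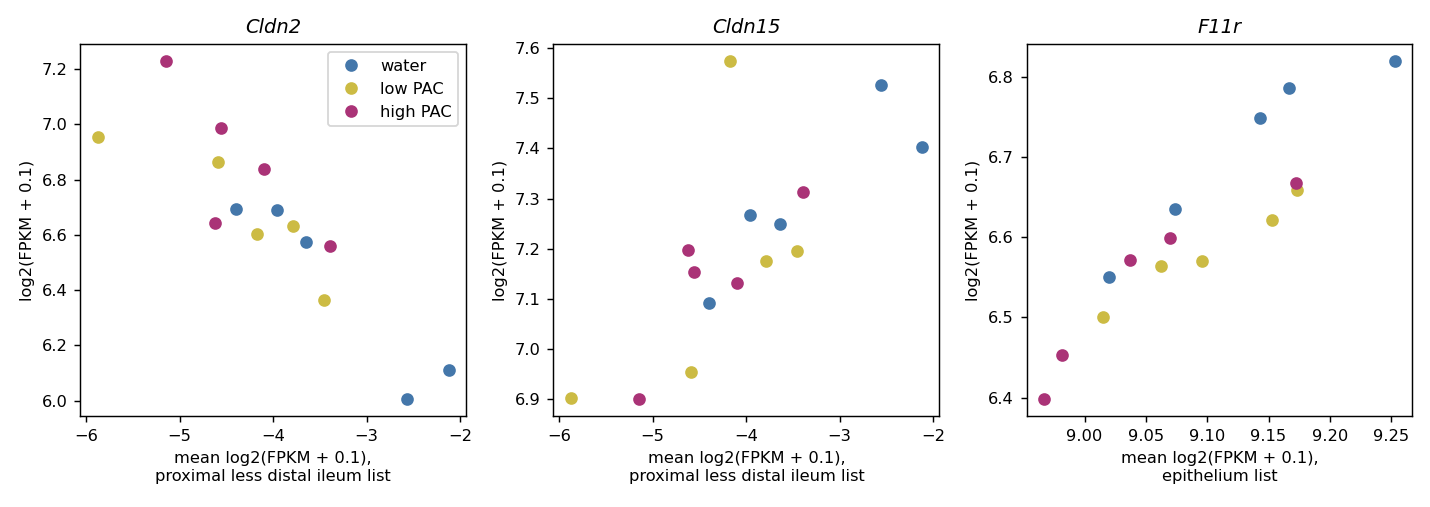
Log2(FPKM + 0.1) of Cldn2 and Cldn15 against the proximal less distal ileum score and of F11r against the epithelium score (x axes, mean log2(FPKM + 0.1) of the lists), 1 point per mouse, coloured by group. Cldn2 is lower and Cldn15 higher towards the right, and F11r is higher at higher epithelium scores in all 3 groups.

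The promoters of this pair of claudins are shown because their transcripts varied in opposite directions along the position score. They are the 250 bases before the RefSeq start of each gene in GRCm38.p6, both on the plus strand, at chrX:139800558-139800807 for Cldn2 and chr5:136967619-136967868 for Cldn15. Capitals mark matches, on either strand, to 1 of 3 motifs of transcription factors of the intestinal epithelium. They were searched as AGATAA for the GATA family, TTTATG for the CDX family and CAAAGT for HNF4, and no 2 of them overlap in these windows.
Cldn2: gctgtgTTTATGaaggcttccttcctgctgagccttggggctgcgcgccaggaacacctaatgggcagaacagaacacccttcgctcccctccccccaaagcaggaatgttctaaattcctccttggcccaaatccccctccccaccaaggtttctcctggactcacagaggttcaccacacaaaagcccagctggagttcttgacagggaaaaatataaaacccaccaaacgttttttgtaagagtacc
Cldn15: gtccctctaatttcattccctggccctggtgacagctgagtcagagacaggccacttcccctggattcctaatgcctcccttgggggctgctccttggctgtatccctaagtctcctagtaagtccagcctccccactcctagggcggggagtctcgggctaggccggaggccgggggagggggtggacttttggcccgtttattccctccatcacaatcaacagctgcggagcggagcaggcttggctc
Cldn2 held 1 match, to TTTATG, which began 244 bases before the start, and Cldn15 held 0. RefSeq promoters were found for 9 of the 10 genes (12 windows, as Cldn7, Ocln and Marveld2 have 2 starts each). Cldn2 was the only one of the 9 with a match to any of the 3, while TTTATG was found in 10.8%, AGATAA in 9.99% and CAAAGT in 12.6% of all 32851 promoter windows of this length. A match in these letters is a description and not a binding site, and the lack of one says only that the letters are not in this window.

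The tight junction genes were then compared with each other. With the group means subtracted, 30 of the 45 pairs (66.7%) had a positive r over the 15 mice and 15 a negative one, with a median of 0.35. Over all pairs of 14014 genes, 52.0% were positive and the median was 0.020. At an adjusted p under 0.05, 9 pairs passed by a permutation test over the 45, added after seeing the data, and 8 of them were positive. The permutations again ignored the subtracted group means, so these p-values are somewhat too small. The share of all gene pairs with an r of this size was not computed, so the 9 are not shown to be particular to junction genes. The closest was Cldn7 with Cldn23 (r = 0.83, p = 0.00011, adjusted p = 0.0050, rho = 0.71 with p = 0.0039, 0.80 without the 2 mice farthest in Cldn7), followed by Cldn4 with Cldn7 (r = 0.78, p = 0.00075, adjusted p = 0.0121, rho = 0.68 with p = 0.0073, 0.62 without 2 mice). Cldn3 went with Cldn7 (r = 0.75, p = 0.0013, adjusted p = 0.0121, rho = 0.77 with p = 0.0012, 0.72 without 2 mice). The single negative pair was Cldn2 with Cldn15 (r = -0.74, p = 0.0013, adjusted p = 0.0121, rho = -0.88 with p = 4e-05, -0.66 without 2 mice). Cldn3 and Cldn4 are neighbours on chromosome 5, 39279 bases apart on opposite strands and with 0 protein-coding genes between them, and had r = 0.71 (p = 0.0031, adjusted p = 0.0233, rho = 0.68 with p = 0.0067, 0.66 without 2 mice). With the p of rho adjusted over the 45 pairs, Cldn4 with Cldn7 and Cldn3 with Cldn4 did not pass (both 0.0545). The other pairs named here still passed (Cldn7 with Cldn23 0.0440, Cldn3 with Cldn7 0.0186, Cldn2 with Cldn15 0.0018). The exons of Cldn3 overlap the antisense gene Wbscr25, so its counts are uncertain to that extent.

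**Figure D5:**
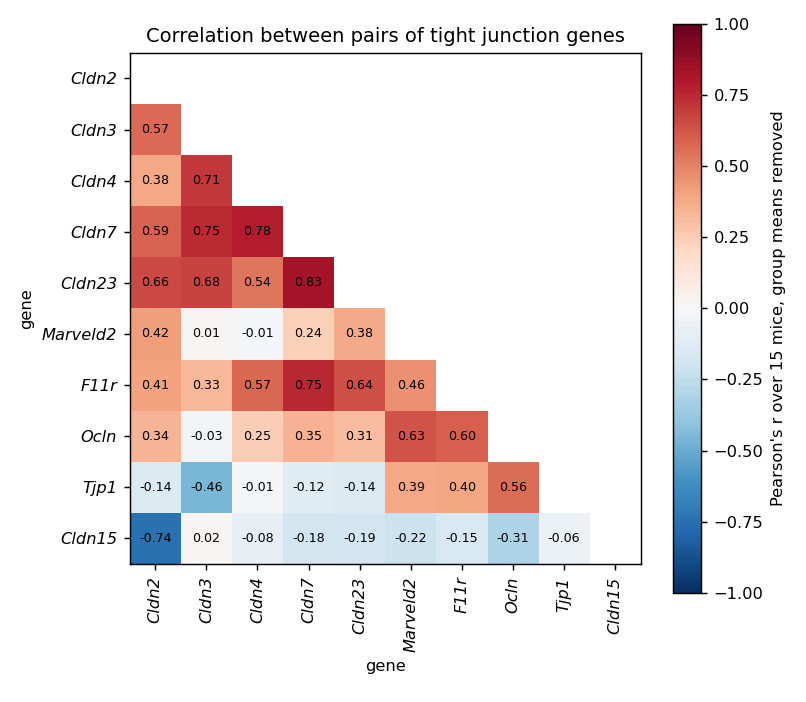
Pearson's r (colour and number) between pairs of tight junction genes (both axes), from log2(FPKM + 0.1) over 15 mice with group means subtracted. Cldn3, Cldn4, Cldn7 and Cldn23 form a block of positive values, and Cldn2 with Cldn15 is the lowest value, -0.74.

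Genes elsewhere in the genome with the most similar pattern over the mice are given by r of the same centred values, among 14013 genes and with no test. For Cldn2 they were Mettl7b (r = 0.91), Dll4 (0.90), which is a Notch ligand, and Mgat4b (0.88). Cldn15 was followed most closely by Tm4sf5 (0.94), Dhrs1 (0.93) and Atg3 (0.92), Cldn3 by Spint2 (0.94), an inhibitor of membrane serine proteases, Pcbp1 (0.94) and Ost4 (0.93), and F11r by St14 (0.94), the membrane protease matriptase, Map2k3 (0.93) and Tcf7l2 (0.90). For Tjp1 they were Dopey2 (0.95), Lpar5 (0.94) and Ppip5k1 (0.94), for Ocln Trib1 (0.90), Rai14 (0.89) and Tor1aip2 (0.88), and for Marveld2 Cdc14a (0.89), Sh3gl2 (0.85) and Drosha (0.82). The r values of Tjp1 may rest on the third high PAC mouse, whose 23.6 FPKM was the lowest, and were not recomputed without it. Cldn7 had Tes, Anxa11 and Misp (each 0.86), Cldn4 Anxa11 (0.91), Trip10 (0.88) and Dnttip1 (0.88), and Cldn23 Clec4a1 (0.87), Cldn7 itself (0.83) and Tifab (0.83).

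The wider junction was read from 5 lists written by hand. Of 24 other claudins and claudin-domain genes, 20 were listed in some mouse and 7 were expressed highly enough to be tested, namely Cldn1, Cldn5, Cldn8, Cldn10, Cldn12, Cldn34c1 and Cldnd1. The highest mean FPKM among them were those of Cldnd1 (24.9) and Cldn12 (14.3), both below Cldn4, and none of the 7 had an unadjusted p under 0.05 in any comparison. Of 24 further tight junction proteins, all tested, the highest were Lsr (140.1 FPKM over the 15 mice), which with tricellulin marks contacts of 3 cells, Ybx3 (102), Tjp3 (73.1), Cxadr (58.8) and Cgn (45.7).

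Over the 5 lists, 21 of the 84 genes tested (25.0%) had an unadjusted p under 0.05 for high PAC against water, of which 19 were lower and 2 higher, beside 14.8% of all genes in either direction, and 0 passed after adjustment (smallest adjusted p = 0.203). The split into higher and lower was 4 and 10 with upper-quartile scaling, 7 and 5 with library sizes alone, and 14 and 1 when scaled to the epithelium list. The shares of all genes higher and lower were 10.5% and 5.67%, 15.5% and 3.32%, and 27.5% and 1.11% in the same order, so that the share of higher junction genes (4.76%, 8.33% and 16.7%) was below that of all genes in each. The share of lower ones (11.9%, 5.95% and 1.19%) was above it with the first 2 scalings and about equal to it, at 1 gene, on the epithelial scale. At the TMM scale, the count over the 84 genes depended on single mice. Without the third high PAC mouse it was 10 (11.9%, beside 10.9% of all genes), without the first water mouse 11 (13.1% beside 10.5%), without the third water mouse 13 (15.5% beside 11.1%) and without the first high PAC mouse 13 (15.5% beside 14.2%). It was 27 without the fifth water mouse (32.1%, beside 4.16% of all genes higher and 10.8% lower) and 29 without the fourth high PAC mouse (34.5% beside 17.0%). Of the tight junction proteins, Magi3, a membrane-linked scaffold, had a log2 fold change of -0.38 ± 0.11 (17.1 ± 2.38 against 20.8 ± 2.28 FPKM, SD, n = 5) and Cxadr, an adhesion receptor, one of -0.31 ± 0.13, while Ildr1, another protein of contacts of 3 cells, was at 0.56 ± 0.21 (5.32 ± 1.36 against 3.38 ± 0.860 FPKM). Cgnl1 (0.47 ± 0.22), named after its value was seen, was the other of the 2 higher genes. In the polarity complexes the count was 3 of 14, all lower: Pals1 (listed as Mpp5, -0.51 ± 0.17, 20.0 ± 4.55 against 26.6 ± 2.95 FPKM), Patj (-0.24 ± 0.11) and Prkcz (-0.16 ± 0.07). The count was 5 of 18 for adherens junctions and desmosomes, all lower, with the desmosomal cadherins Dsg2 (-0.33 ± 0.11) and Dsc2 (-0.30 ± 0.11) and p120 catenin (Ctnnd1, -0.30 ± 0.10) having the smallest p. It was 7 of 21 for regulators, all lower, led by Arhgef2 (-0.25 ± 0.08), the protease receptor F2rl1 (-0.33 ± 0.11) and the kinase Rock2 (-0.24 ± 0.08). At the TMM scale 10.4% of all genes were lower at this p, and these counts per list include the third high PAC mouse.

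In the other comparisons these lists gave few genes. With low PAC against water, 1 of 84 (1.19%) had an unadjusted p under 0.05, the endothelial adhesion molecule Esam (-0.26 ± 0.12), beside 3.61% of all genes. For high against low PAC there were 3 (3.57%, beside 3.89% of all genes), namely Magi3 (-0.27 ± 0.11), Dsg2 (-0.24 ± 0.11) and the desmosomal plaque protein Dsp (-0.25 ± 0.12), each lower with high PAC. None passed after adjustment (adjusted p of 0.896 or more, edgeR).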

How the data were processed

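Ileal RNA of 15 mice (5 water, 5 low PAC, 5 high PAC) was sequenced. Groups came from the sample labels, and each library came from 1 mouse. The authors deposited, for each mouse and gene, an expected count (estimated read pairs, not normalized), an FPKM value with 2 decimals and a gene length. The study's methods describe cleaning with SOAPnuke and mapping to mm10 with Bowtie2, while the submitters' processing notes name HISAT, DESeq2 and mm10. The counting tool is not given in the sources used here. A gene missing from a mouse's list was taken as 0, and whole numbers made up 88.6% to 89.5% of each mouse's expected counts.

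Rounded expected counts went into edgeR 4.0.16 (TMM, quasi-likelihood test, filter on low counts, 1 model of all 15 mice) in R 4.3.3, with Benjamini-Hochberg adjustment over 14386 genes and a threshold of 0.05. Standard errors and 95% intervals of log2 fold changes came from the test statistic. Levels and correlations used FPKM, as log2(FPKM + 0.1), in Python 3.11.15 (numpy 2.4.6, pandas 2.3.3, scipy 1.17.1). Two-sided permutation tests were exact for 5 against 5 mice, with a smallest possible p of 0.0079, and drew 100000 permutations for correlations. NOISeq was re-implemented on FPKM with the study's probability and fold, and zeros replaced by 0.5 times the smallest value. Alternatives used DESeq2 1.42.0, limma 3.58.1, other scalings, filters and pseudocounts, a block for the mouse number, and each mouse left out. Mice with the same number did not deviate together (5 of 15 pairs with a correlation over 0.1, from -0.307 to 0.445), so the numbers were not taken to pair them. The edgeR, limma and DESeq2 fits, the permutation tests, the adjustment and the NOISeq rule were tested on simulated data. The correlation test was simulated on values without groups, so its behaviour after subtracting group means was not covered.

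The 10 genes, the marker and junction lists and the tests were chosen with earlier results of these data known. Named from the junction lists were up to 3 genes per list and comparison with the smallest p under 0.05, the 5 with the highest FPKM among the tight junction and claudin lists, and 3 genes most like each of the 10. Coordinates are from GENCODE and promoters from RefSeq, both on GRCm38 (mm10). Figures were drawn with matplotlib 3.10.9.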

Additional observations from a re-analysis of the deposited data

Results flagged for a closer look

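In 6 of 45 sets of 5 values, 1 mouse stood apart from the other 4 by Dixon's test at the 95% level, where chance gives about 1 in 20. Of the 10 tight junction genes, the values concerned were a Cldn3 of 290.9 FPKM in a water mouse, an Ocln of 52.36 FPKM in a low PAC mouse and a Tjp1 of 23.6 FPKM in a high PAC mouse.

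The other 3 values came from the same high PAC mouse, the third, as the low Tjp1. Its count-weighted mean gene length was 3134 bases, its mean transcript length was 7013 bases for Tjp1 and its mean transcript length was 2893 bases for Marveld2, each the shortest of its group. The next lowest transcript length of any mouse was 7015 bases for Tjp1, nearly the same, and 2976 bases for Marveld2. Among 5477 genes with several transcripts, this mouse had the shortest mean length of all 15 in 796 (14.5%). The part of these lengths in its Tjp1 value was not tested.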

How the results depend on the processing

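None of the 10 genes passed after adjustment in any comparison under any alternative run (14 settings, NOISeq and each of the 15 mice left out). The alternatives were planned, apart from the 3 other position scores, the 45 pair tests and leaving the 2 scores of follicle tissue out of the count. The 4 genes at an unadjusted p under 0.05 for high PAC against water gave way to 2, F11r and Cldn2 (higher), with upper-quartile scaling (16.1% of all genes), library sizes alone (18.8%), no filter on low counts (12.6%) and limma on log2(FPKM + 0.1, 1 or 0.01) (19.4%) or without a filter (16.8%). They were 2 with RLE size factors (F11r and Ocln, 14.6%), the 10 mice of the comparison alone (F11r and Cldn15, 12.7%) and scaling to the epithelium list (Cldn2 and Marveld2, both higher, 28.6%), and 1 to 5 when single mice were left out (10.5% to 17.0%). With the mouse number as a replicate block they were 2 (F11r and Tjp1, 12.8%), the 1 gene for low PAC against water was 0 and the 1 junction list gene for that comparison was 0, while the block changed no adjusted call of a tight junction gene. For low PAC against water the 1 gene became 0 with those scalings and limma settings and without the filter, and 0 to 1 without single mice. For high against low PAC the count was 0 to 1 without single mice. Of the junction lists, the 21 genes for high PAC against water became 12 with library sizes alone, 13 with limma on log2(FPKM + 1) and 10 to 29 without single mice. The 1 gene for low PAC against water became 0 with upper-quartile scaling, RLE size factors, a mean CPM of at least 1 or DESeq2, 2 with library sizes alone, limma on log2(FPKM + 0.1 or 1), limma without a filter or the 10 mice alone, 3 when scaled to the epithelium list or with limma on log2(FPKM + 0.01), and 0 to 3 without single mice. The 3 for high against low PAC became 1 with library sizes alone or the 10 mice alone, 0 on the epithelial scale and 0 to 8 without single mice. The 7 relations to tissue scores became 3 to 8 without single mice (3 without water mouse 1, 4 without water mouse 2, 4 or 5 or high PAC mouse 5). Those of Cldn2 with position and of F11r and Cldn7 with epithelium passed in each of these.

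Log2 fold changes near 0 changed sign with the scale, and the cause was not tested beyond the shift of all genes given above. For high PAC against water, Cldn3 was 0.0176 with upper-quartile scaling, 0.050 with library sizes alone, 0.162 on the epithelial scale and 0.0465 with limma (0.0463 with a pseudocount of 1). Cldn23 was 0.00232 with library sizes, 0.111 on the epithelial scale and 0.00664 (0.00601 with a pseudocount of 1, 0.00671 with 0.01) with limma. Marveld2 was 0.0453 with upper-quartile scaling, 0.00575 with RLE, 0.0795 with library sizes, 0.182 on the epithelial scale, 0.0151 without a filter, 0.00598 with DESeq2 and 0.0934 (0.0886 with a pseudocount of 1, 0.0939 with 0.01) with limma. Cldn4 was 0.0383 and Cldn7 0.0150 on the epithelial scale. For low PAC against water, Cldn23 was 0.0185 with upper-quartile scaling, 0.00350 with RLE, 0.00353 with DESeq2, 0.0441 with library sizes, 0.103 on the epithelial scale, 0.00766 without a filter, 0.00467 with the 10 mice alone and 0.0455 (0.0427 with a pseudocount of 1, 0.0458 with 0.01) with limma. On the library size and epithelial scales and with limma, Cldn4 was 0.000797, 0.0588 and 0.0101 (0.00967 with a pseudocount of 1), and Tjp1 0.0138, 0.0656 and 0.0152 (0.0148 with a pseudocount of 1). Cldn7 was 0.0231 and Ocln 0.00648 on the epithelial scale. For high against low PAC, the epithelial scale gave Cldn3 0.0197, Cldn15 0.0132, Cldn23 0.00752, Marveld2 0.0552 and F11r 0.00223, and Marveld2 was also 0.00273 with upper-quartile scaling, 0.0103 with library sizes and 0.0198 (0.0189 with a pseudocount of 1, 0.0199 with 0.01) with limma. Without single mice, the range for high PAC against water was -0.100 to 0.0402 for Cldn3 and -0.0655 to 0.0601 for Marveld2. For low PAC against water it was -0.0337 to 0.119 for Cldn3, -0.112 to 0.0536 for Cldn4, -0.0710 to 0.0518 for Cldn23 and -0.0377 to 0.0356 for Marveld2. For high against low PAC it was -0.134 to 0.0392 for Cldn15 and -0.0695 to 0.0273 for Marveld2.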
